A study of Mus musculus with 2 samples.

Results

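The macrophage survival and efferocytosis signals described here are 7 genes of the 32285 in each matrix. They are the ligands Csf1 and Il34 with their receptor Csf1r, and the ligands Gas6 and Pros1 with the receptors Axl and Mertk. The genes were taken by symbol, whatever their values, and each had UMIs (unique molecular identifiers, which count captured RNA molecules) in both libraries. Cells came from mitral valve leaflets of 12-week-old WT mice (Fbn1+/+) and of Fbn1 mgR/mgR littermates (mgR), which are homozygous for a hypomorphic allele of the fibrillin-1 gene in every cell. Both groups shared the C57BL/6J background, and the study compared them to learn which cells and signals of the valve differ when fibrillin-1 is short. Leaflets were digested with collagenase and elastase, viable cells were sorted, and 1 droplet library was made per genotype. The labels do not give the number of mice behind a library. A legend in the supplement of the study states an n for the single-cell comparison, without saying whether those mice were pooled. With 1 library per genotype no difference between WT and mgR has a replicate check, and no test was made.

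CSF1 and IL-34 are secreted cytokines that bind the tyrosine kinase receptor CSF1R on macrophages and their precursors, and this signal keeps macrophages alive and lets them divide. GAS6 and protein S, the product of Pros1, are vitamin K-dependent proteins that attach to phosphatidylserine on dying cells. GAS6 bridges such cells to the TAM receptor kinases AXL and MERTK, and protein S bridges them to MERTK. These receptors drive engulfment (efferocytosis) and damp inflammatory signaling. MERTK is known from resting, tissue-resident macrophages, and AXL from inflamed macrophages and from stromal cells.

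After filtering, 875 WT cells (median 5033 UMIs) and 3438 mgR cells (median 7370 UMIs) remained, with no shared barcode among them. The fibroblast gate (at least 10 UMIs of Col1a2, Col3a1 and Dcn) was met alone by 322 WT and 879 mgR cells, and the macrophage gate (at least 10 UMIs of C1qa, C1qb and C1qc) alone by 224 and 1539. The endothelium gate (at least 2 UMIs of Pecam1 and Cdh5) was met alone by 29 and 150 cells. A further 28 and 304 cells met the fibroblast and the endothelium gates, and held more of the 5 endothelial check markers (1338 and 1964 CPM) than the cells of the endothelium gate alone (995 and 1072 CPM). CPM is the number of UMIs of a gene, or of a list, per 1000000 UMIs of the class. Check markers that the gates did not use went with the labels of the fibroblast and macrophage gates, where the 5 fibroblast markers summed to 3715 and 3640 CPM in fibroblasts and to 5.54 and 7.06 CPM in macrophages. The endothelium gate also held 315 and 375 CPM of them. Fbn1 itself was read at 171 CPM in WT and 135 CPM in mgR fibroblasts, a ratio of 0.790 (0.691 to 0.907). The paper describes its mRNA as severely reduced in these mice, a stronger fall than was read here. This gap was not tested. The methods state that male mice were compared, yet 28.1% of WT and 60.8% of mgR cells held Xist UMIs without Y-linked ones, and 38.5% and 21.1% the reverse. Values within these sets are given beside the printed mgR to WT ratios of the members in the 3 gates, and of list genes. They are given where they end a call, turn a direction or move a ratio by over 1.5 times. Member ratios that are not printed, such as those of Axl in endothelium and Csf1r in fibroblasts, are not covered. Ratios inside the macrophage and fibroblast ranges were not split in this way, and the part of sex in the differences was not tested. Intervals in parentheses are 95% intervals, exact Poisson for levels, exact conditional binomial for ratios and exact Clopper-Pearson for shares, and cover counting error only.

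Most Csf1 UMIs came from fibroblasts, where the level was lower in the mgR library. The gene (ENSMUSG00000014599, protein coding) is placed by GENCODE on GRCm38 at chromosome 3, minus strand, from base 107741048 up to 107760469. Fibroblasts held 284 Csf1 UMIs in WT, or 168 CPM (149 to 189), and 706 in mgR, or 114 CPM (106 to 123). The mgR to WT ratio was 0.677 (0.589 to 0.780), beyond counting error and just short of the 1.5-fold limit used here to call a difference. A few WT fibroblasts weighed on this value. The 10 WT fibroblasts with most Csf1 UMIs held 31.0% of the total, up to 32 UMIs in 1 cell, against 11.3% in mgR. Without the 10 top cells of each library the ratio was 0.846. In fibroblasts with Xist UMIs alone it was 0.798 (0.615 to 1.05), and in those with Y-linked UMIs alone 0.608 (0.489 to 0.756).

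Macrophages, the cells that carry the receptor, held little Csf1: 8.31 CPM in WT and 6.69 CPM in mgR. The ratio of 0.805 on 12 WT UMIs was 0.485 (0.210 to 1.38) in macrophages with Xist UMIs alone and 0.984 (0.392 to 2.94) in those with Y-linked UMIs alone. The fibroblast level exceeded the macrophage level 20.2-fold (11.4 to 39.6) in WT and 17.0-fold (13.6 to 21.4) in mgR. Fibroblasts contributed 83.3% of all Csf1 UMIs of kept WT cells and 66.9% of those of mgR cells. Cells that met the fibroblast and the endothelium gates, which are not counted in these shares, held a further 2.35% and 13.5%. Over all kept cells, the mixture of classes included, Csf1 stood at 74.5 CPM in WT and 39.5 CPM in mgR. Neutrophil-like cells, defined by S100a8, S100a9 and Retnlg, had 251 CPM (143 to 407) in mgR from 16 UMIs in 29 cells, above the fibroblast level by 2.20-fold (1.25 to 3.60). T cell-like and dendritic cell-like cells held at most 4 UMIs of Csf1 in either library.

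In cells of the endothelium gate alone, Csf1 was read at 196 CPM (124 to 294) in WT and 55.03 CPM (40.6 to 73.0) in mgR, a ratio of 0.281 (0.168 to 0.485). The WT value rests on 23 UMIs, and all of them lay in no more than 10 cells. Within the sets it was 2.72 (0.455 to 111) on 1 WT UMI for Xist alone and 0.149 (0.0510 to 0.419) for Y-linked UMIs alone. Cells that met the fibroblast and the endothelium gates had 49.6 CPM from 8 UMIs in WT and 68.6 CPM from 142 in mgR, a ratio of 1.38 (0.684 to 3.27) whose interval includes 1. Over every cell that met the endothelium gate the ratio was 0.615. Il34, the second ligand of the receptor (ENSMUSG00000031750, chromosome 8 from 110741829 to 110805924, minus strand, overlapped on the other strand by Gm15894 and Gm15895), was close to the detection limit. It had 2 UMIs in WT and 31 in mgR fibroblasts, 1.18 and 4.998 CPM, and the ratio of 4.22 had an interval from 1.07 to 36.4. With Y-linked UMIs alone it was 1.38 (0.225 to 14.5), and WT fibroblasts with Xist UMIs alone held 0. No macrophage of either library held an Il34 UMI, which allows up to 2.08 CPM in WT and 0.223 CPM in mgR at 3 counts.

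**Figure D1:**
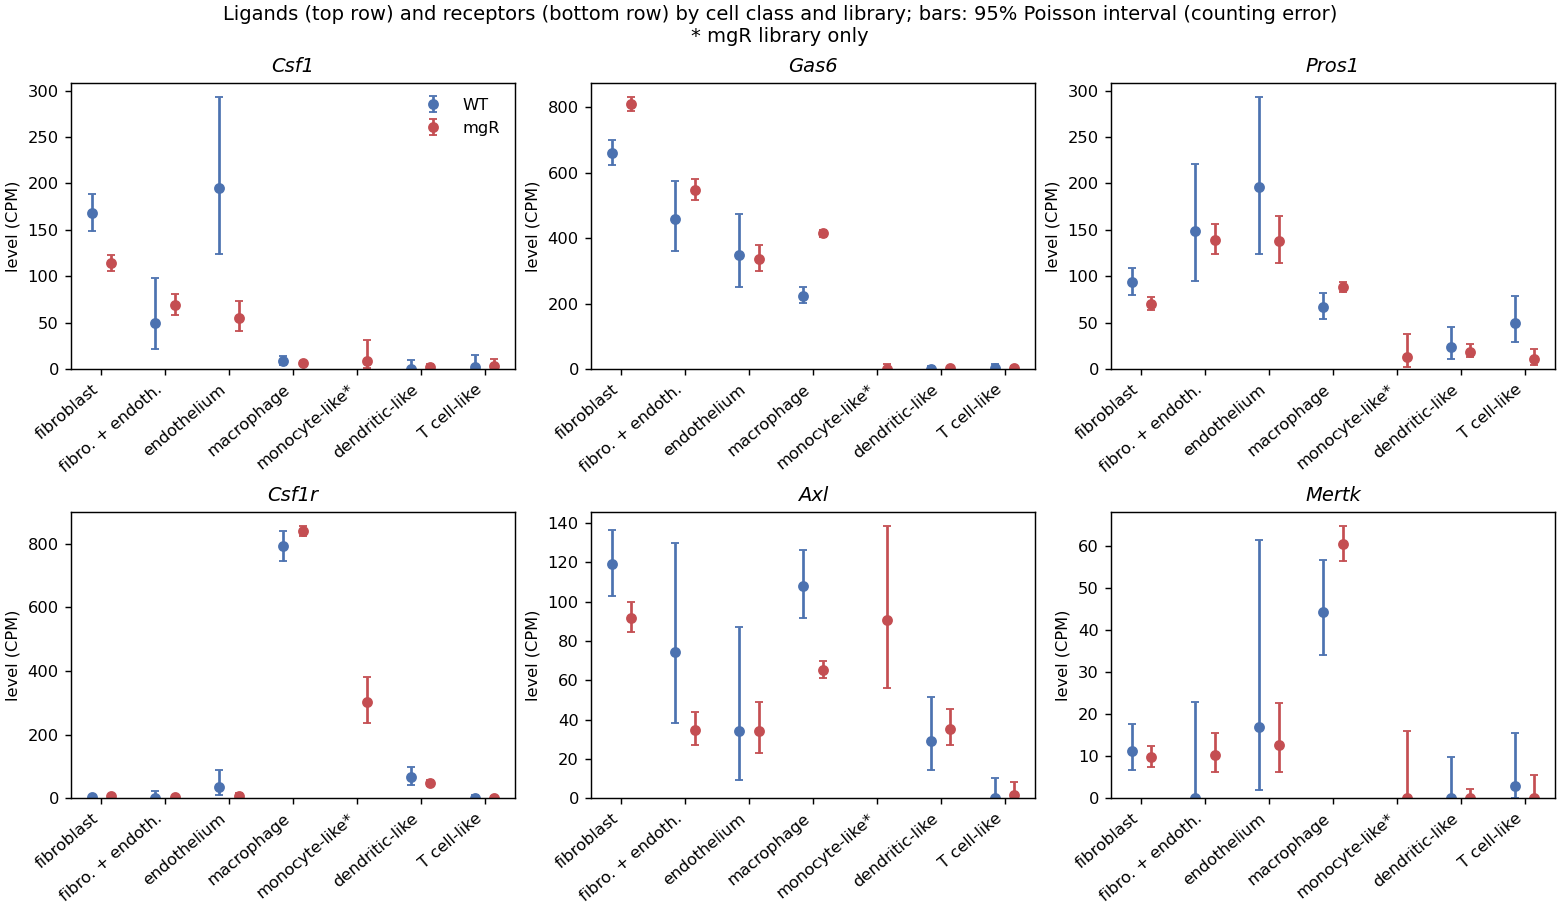
Level of 3 ligands (top row) and 3 receptors (bottom row) in CPM by cell class, WT in blue and mgR in red, as points with 95% Poisson intervals, for classes of at least 20 cells. Gas6 was highest in fibroblasts in both libraries. Csf1 was above the macrophage level in fibroblasts and endothelium, Csf1r and Mertk were highest in macrophages, and Axl was shared by fibroblasts and macrophages.

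Csf1r marked the macrophage gate sharply and differed little between the libraries. Macrophages held 1144 Csf1r UMIs in WT, or 792 CPM (747 to 839), and 11310 in mgR, or 841 CPM (825 to 856), for a ratio of 1.06 (0.999 to 1.13). The gene has the identifier ENSMUSG00000024621. Mir6983 overlaps it on the same strand and Hmgxb3 on the other. A typical macrophage carried 4 Csf1r UMIs in WT and 6 in mgR (medians), and 5.36% and 4.03% of macrophages had none. When each cell was thinned to 2000 UMIs, which removes the depth difference, 74.8% of WT and 76.3% of mgR macrophages still had a Csf1r UMI. Thinning left out 6 WT and 24 mgR macrophages that were shallower. The background in cells that should lack the receptor was low, at 0.685% of WT and 2.01% of mgR fibroblasts after the same thinning and at 0 of 78 WT and 0 of 125 mgR T cell-like cells, which allows shares of up to 3.85% and 2.40% at 3 counts.

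The macrophage level exceeded the fibroblast level 334-fold (130 to 1229) in WT and 119-fold (88.2 to 163) in mgR. The fibroblast values were 4 UMIs in WT and 44 in mgR, 2.37 and 7.09 CPM. UMIs of the macrophage gate genes moved with them, from 4.74 to 7.11 CPM per gene in WT fibroblasts to 9.51 to 24.5 CPM in mgR fibroblasts, and their part in this difference was not tested. Macrophages supplied 88.5% of the Csf1r UMIs of kept WT cells and 95.2% in mgR. Monocyte-like cells (Ly6c2, Plac8, Chil3) of the mgR library held 302 CPM (236 to 382), and dendritic cell-like cells 65.6 CPM in WT and 46.4 CPM in mgR. The order in mgR was thus macrophage, monocyte-like, then neutrophil-like and dendritic cell-like cells, of which the last 2 did not differ beyond counting error.

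Gas6 was read in cells of all 3 gates, and was the ligand whose macrophage level differed most between the libraries by its ratio. It lies on chromosome 8 (ENSMUSG00000031451, 13465374 to 13494490, minus strand), where Tmem255b overlaps it on the other strand. Fibroblasts held 1117 Gas6 UMIs in WT, or 661 CPM (623 to 701), and 5023 in mgR, or 809.8 CPM (788 to 833), a ratio of 1.22 (1.15 to 1.31). It was 1.03 (0.928 to 1.15) in fibroblasts with Xist UMIs alone and 1.26 (1.14 to 1.39) in those with Y-linked UMIs alone. Macrophages held 324 UMIs in WT, or 224 CPM (201 to 250), and 5585 in mgR, or 415 CPM (404 to 426). Their ratio of 1.85 (1.65 to 2.08) passed the fold, and was 1.74 (1.44 to 2.11) in macrophages with Xist UMIs alone and 1.86 (1.56 to 2.22) in those with Y-linked UMIs alone. A Gas6 UMI was present in 28.4% of WT and 45.9% of mgR macrophages thinned to 2000 UMIs, and in 46.9% and 71.5% without thinning.

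Fibroblasts exceeded macrophages 2.95-fold (2.60 to 3.35) in WT and 1.95-fold (1.88 to 2.03) in mgR. Among cells that met a single gate, the main source differed too. Fibroblasts gave 70.1% and macrophages 20.3% of the Gas6 UMIs of kept WT cells, against 40.7% and 45.3% in mgR, which held more macrophages than fibroblasts. Cells that met the fibroblast and the endothelium gates, counted in neither, held 74 Gas6 UMIs in WT and 1135 in mgR. Counted with fibroblasts, they would put the fibroblast part in mgR above that of macrophages. The paper asks for caution with cell proportions, as yield may differ by cell type. Cells of the endothelium gate held 349 CPM (250.2 to 473) in WT and 337 CPM (299.6 to 378) in mgR, a ratio of 0.967 (0.695 to 1.38), with 1.09 (0.647 to 1.99) for Xist alone and 0.616 (0.347 to 1.15) for Y-linked UMIs alone. Lymphoid and other myeloid cells were nearly without it: T cell-like cells had 1 UMI in WT and 2 in mgR, dendritic cell-like cells 0 and 6, and monocyte-like cells of mgR 0. The T cell-like level, 2.78 CPM in WT and 2.97 CPM in mgR, serves as the background for RNA from outside the cell, and 0 of 78 and 1 of 125 thinned T cell-like cells had a UMI.

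Pros1, the gene of protein S, was spread over more classes and differed between the libraries in opposite directions in fibroblasts and macrophages. It lies on chromosome 16 (ENSMUSG00000022912, 62854307 to 62929346, plus strand). Fibroblasts had 158 UMIs in WT, or 93.6 CPM (79.5 to 109), and 438 in mgR, or 70.6 CPM (64.2 to 77.6), a ratio of 0.755 (0.628 to 0.911). Macrophages had 97 UMIs in WT, or 67.2 CPM (54.5 to 81.9), and 1188 in mgR, or 88.3 CPM (83.4 to 93.5), a ratio of 1.32 (1.07 to 1.63). Both intervals lie away from 1 on opposite sides, but neither ratio passed the fold and the difference between the gates was not tested. Within the sets the fibroblast ratio was 0.754 (0.547 to 1.06) for Xist alone and 0.783 (0.578 to 1.06) for Y-linked UMIs alone. Both of these intervals include 1. The macrophage ratio was 1.48 (1.002 to 2.28) and 1.37 (1.02 to 1.86) in the same order. Over every cell that met the fibroblast gate the ratio was 0.890. The fibroblast level was above the macrophage level 1.39-fold (1.07 to 1.81) in WT and was 0.799 of it (0.715 to 0.893) in mgR.

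Endothelial cells carried the most Pros1 of the 3 gates, at 196 CPM (124 to 294) in WT and 138 CPM (114 to 165) in mgR, with a ratio of 0.703 whose interval (0.447 to 1.15) includes 1 and which was 2.27 without the 10 cells of each library with most Pros1 UMIs. Cells of both the fibroblast and the endothelium gates were similar, at 149 CPM (95.3 to 221) and 139 CPM (124 to 156). The endothelial level exceeded that of macrophages 2.91-fold (1.76 to 4.63) in WT and 1.56-fold (1.28 to 1.88) in mgR. The WT figure was set by few cells, since the 10 cells with most Pros1 UMIs held 87.0% of its 23 UMIs, and without the top 10 cells of each gate it was 0.892. T cell-like cells also held Pros1, 18 UMIs or 50.01 CPM in WT and 7 UMIs or 10.4 CPM in mgR, a ratio of 0.208 (0.0733 to 0.521).

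Axl, the first of the TAM receptors, was carried by fibroblasts and macrophages alike and was lower in mgR in both. It lies on chromosome 7 (ENSMUSG00000002602, 25757273 to 25788705, minus strand). Fibroblasts held 201 UMIs in WT, or 119 CPM (103 to 137), and 570 in mgR, or 91.9 CPM (84.5 to 99.8), a ratio of 0.772 (0.656 to 0.911). Within the sets the fibroblast ratio was 0.777 (0.580 to 1.06) for Xist alone and 0.899 (0.692 to 1.17) for Y-linked UMIs alone, and both intervals include 1. Macrophages held 156 UMIs in WT, or 108 CPM (91.7 to 126), and 879 in mgR, or 65.3 CPM (61.1 to 69.8). Their ratio of 0.605 (0.510 to 0.722) passed the fold in the downward direction and was 0.566 (0.427 to 0.765) in macrophages with Xist UMIs alone and 0.650 (0.488 to 0.874) in those with Y-linked UMIs alone. Among thinned macrophages, 19.7% had an Axl UMI in WT and 12.1% in mgR, beside 0 of 78 and 1 of 125 T cell-like cells, and the unthinned macrophage shares were 44.6% and 35.4%.

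The 2 carriers of Axl were level in WT, where the fibroblast to macrophage ratio was 1.10 (0.890 to 1.37), and fibroblasts stood 1.41-fold (1.26 to 1.56) higher in mgR. Cells of the endothelium gate had less, 34.0 CPM from 4 UMIs in WT and 34.4 CPM (23.2 to 49.1) in mgR. Myeloid cells outside the macrophage gate also carried it, with 90.7 CPM (56.1 to 139) in monocyte-like cells of mgR and 28.9 CPM and 35.3 CPM in dendritic cell-like cells of WT and mgR. T cell-like cells had 0 UMIs in WT and 1 in mgR.

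Mertk, the second receptor of the pair, had its highest level in macrophages among the classes of at least 20 cells, in both libraries. It lies on chromosome 2 (ENSMUSG00000014361, 128698956 to 128802894, plus strand), and Gm23172 overlaps it on the same strand and Gm14011 on the other. Macrophages held 64 UMIs in WT, or 44.3 CPM (34.1 to 56.6), and 813 in mgR, or 60.4 CPM (56.4 to 64.7), a ratio of 1.36 (1.06 to 1.79). In cells with Xist UMIs alone it was 1.82 (1.11 to 3.21) on 16 WT UMIs, while cells with Y-linked UMIs had 59.9 CPM in WT and 58.1 CPM in mgR, a ratio of 0.971 (0.680 to 1.42). In fibroblasts the ratio was 0.860 (0.506 to 1.53) on 19 WT UMIs, and the sets gave 0.559 (0.257 to 1.39) and 1.29 (0.464 to 4.08). Macrophages exceeded fibroblasts 3.94-fold (2.33 to 6.96) in WT and 6.25-fold (4.80 to 8.26) in mgR. Dendritic cell-like cells had no Mertk UMI in either library, nor did monocyte-like cells of mgR, in contrast to Axl, which allows up to 7.87, 1.76 and 12.96 CPM at 3 counts. After thinning, a Mertk UMI was found in 6.88% of WT and 12.4% of mgR macrophages, and in 2.05% and 2.60% of fibroblasts. Without thinning, 20.1% and 34.6% of macrophages had one.

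As described further on, the levels of the GAS6 receptors Mertk and Axl went opposite ways along the resident genes of macrophages. The sequences before their starts are shown for this reason. Each is the 250 bases upstream of the RefSeq start on GRCm38.p6, written 5′ to 3′ on the strand of the gene, with matches to GAGGAA (the core that PU.1, a myeloid factor, can bind) in capitals on either strand. Mertk was read from chr2:128698665-128698914 on the plus strand and Axl from chr7:25788734-25788983 on the minus strand.
Mertk: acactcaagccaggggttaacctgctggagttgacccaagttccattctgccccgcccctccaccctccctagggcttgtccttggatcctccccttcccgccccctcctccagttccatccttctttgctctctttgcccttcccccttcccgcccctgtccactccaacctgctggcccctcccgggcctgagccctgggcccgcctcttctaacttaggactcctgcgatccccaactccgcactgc
Axl: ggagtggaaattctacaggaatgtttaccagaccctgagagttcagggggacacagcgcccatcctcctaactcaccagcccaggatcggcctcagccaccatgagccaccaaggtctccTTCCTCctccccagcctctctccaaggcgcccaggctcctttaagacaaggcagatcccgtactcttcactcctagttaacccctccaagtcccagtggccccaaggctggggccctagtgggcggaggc
The Axl window held 1 match, on the strand opposite the gene, and the Mertk window none. Of 32851 promoter windows of that length, 23.3% held GAGGAA or its reverse complement. TGCTGAC, a half-site of MAF factors found in 3.81% of windows, and TGACTCA, the AP-1 site found in 4.46%, were searched on both strands too and occurred in neither. The windows of Gas6, Pros1 and Csf1 held none of the 3 motifs. A match is a description of these letters and not a binding site.

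**Figure D2:**
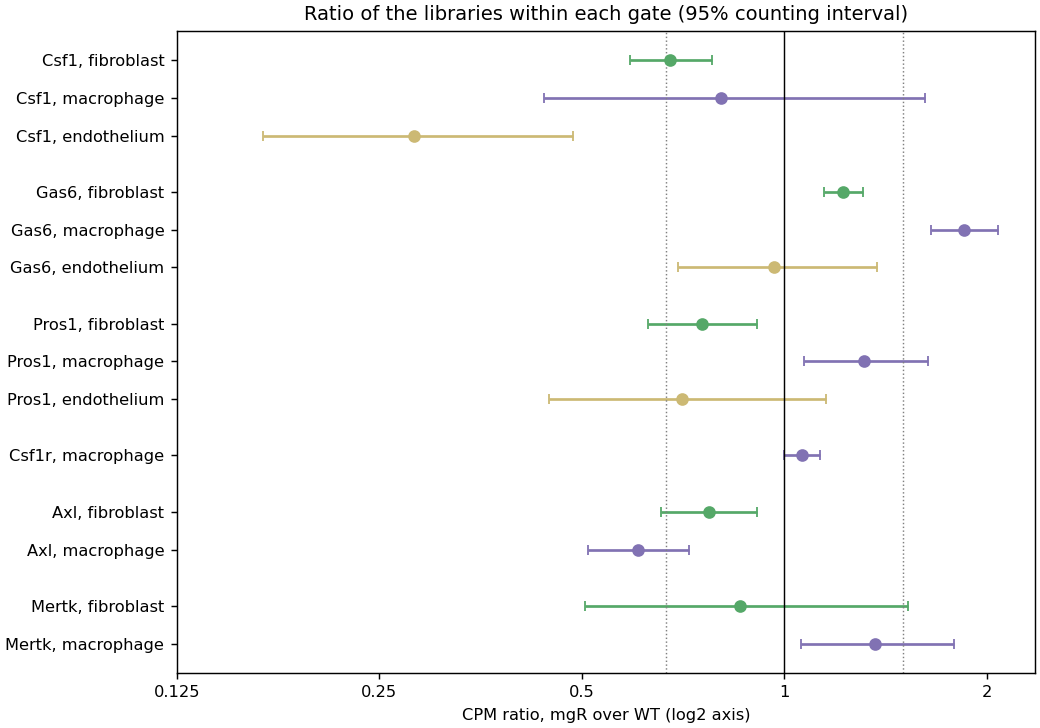
Ratio of the mgR to the WT level on a log2 axis for each gene and gate with at least 10 UMIs in each library. Points carry 95% counting intervals, the solid line is a ratio of 1 and the dotted lines mark the 1.5-fold limits. Gas6 in macrophages (1.85) lies to the right of them and Axl in macrophages (0.605) and Csf1 in endothelium (0.281) to the left.

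Set beside all genes of a gate, the 7 genes did not stand out in number. In fibroblasts, 10.5% of the 7466 genes with at least 100 UMIs over both libraries passed the 1.5-fold limit, and 0 of the 4 members that met the minimum (Csf1, Gas6, Pros1 and Axl) did so. In macrophages 17.6% of 7953 genes passed, and 2 of 6 members did, Gas6 upward and Axl downward, with Csf1, Csf1r, Pros1 and Mertk inside the limits. Without the 10 cells of each library with most UMIs of the gene, a larger share of the 224 WT than of the 1539 mgR cells, Pros1 (1.66) and Mertk (2.04) passed as well. In endothelium 19.5% of 1748 genes passed and 0 of the 2 members with enough UMIs, Gas6 and Pros1. The median log2 ratio of all genes was −0.04 in fibroblasts, 0.11 in macrophages and 0.07 in endothelium. Since the macrophage median exceeded 0.1, Csf1r, whose log2 ratio was 0.09, lay slightly below the typical macrophage gene.

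Within macrophages the receptors and ligands fell into 2 opposed patterns along the resident genes Lyve1, Folr2, Cd163 and Timd4. Cells with at least 5 UMIs of these genes were 32.6% of WT and 58.5% of mgR macrophages, and cells with none were 54.0% and 27.6%. These are ranges of a UMI sum and not cell types. The median macrophage of the high range had 6425 UMIs in WT and 8962.5 in mgR. Ranges were also set on cells thinned to 2000 UMIs, where the high range began at 2 resident UMIs in place of 5. The thinned ranges thus differ in their limit as well as in depth. Of these, the high range held 29.9% and 53.7% and the range at 0 held 58.0% and 35.7%. Csf1r, Mertk, Gas6 and Pros1 were all higher at the resident end in each library. Axl alone among these 5 was lower there. Csf1, with few UMIs in macrophages, was also lower there in mgR, at 0.551 (0.340 to 0.902) on 42 and 32 UMIs. In WT it stood at 0.513 on 3 and 9 UMIs, with an interval (0.0893 to 2.05) that includes equal levels.

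The opposition was wide. Gas6 stood at 458 CPM (400.5 to 521) in the high range and 46.4 CPM (32.5 to 64.2) at 0 in WT, and at 610.1 CPM (593 to 627) and 48.0 CPM (41.0 to 55.8) in mgR. These are 9.87-fold (6.93 to 14.4) and 12.7-fold (10.9 to 14.9) differences, and 7.45-fold and 6.70-fold when the ranges were set on cells thinned to 2000 UMIs. Mertk went from 81.2 CPM (58.3 to 110.2) to 16.7 CPM (8.91 to 28.6) in WT and from 76.4 CPM (70.5 to 82.5) to 27.4 CPM (22.2 to 33.5) in mgR. Pros1 was 3.03-fold (1.92 to 4.86) higher at the resident end in WT and 4.74-fold (3.81 to 5.96) in mgR, and Csf1r 1.98-fold (1.74 to 2.24) and 2.01-fold (1.91 to 2.12). Axl, in contrast, was read at 49.5 CPM (32.1 to 73.1) in the high range and 147 CPM (121 to 176) at 0 in WT, and at 40.7 CPM (36.5 to 45.3) and 117 CPM (105 to 128) in mgR, ratios of 0.337 and 0.349.

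**Figure D3:**
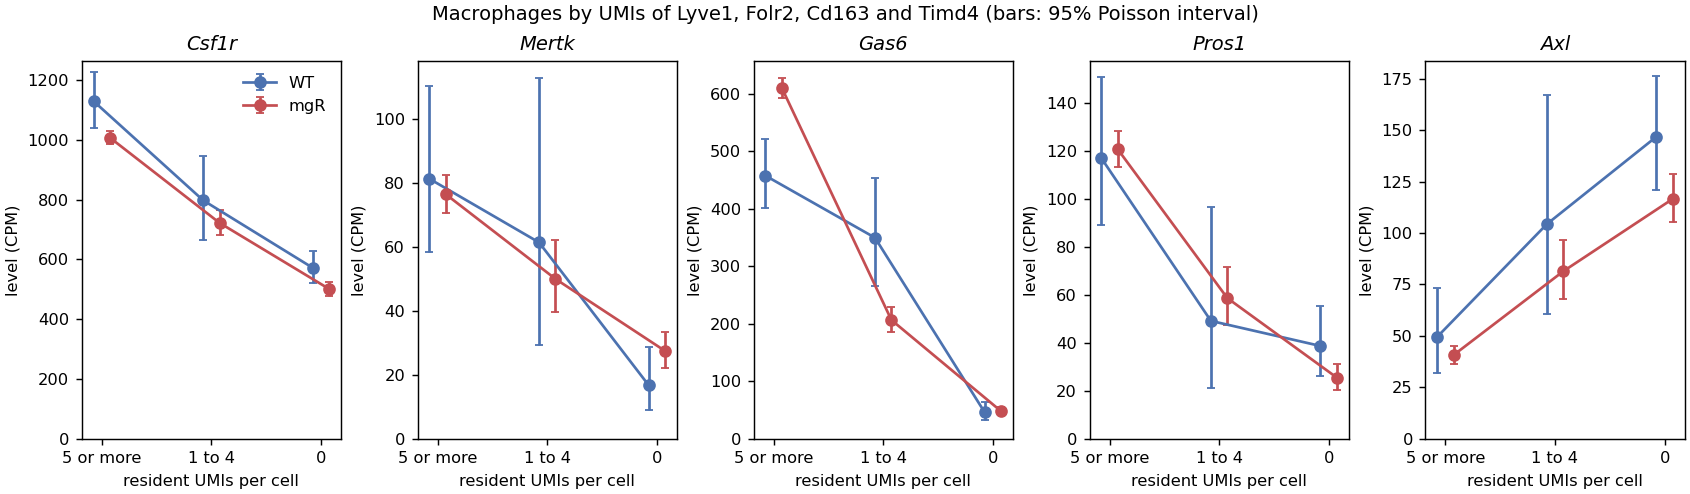
Level in CPM of the receptors Csf1r, Mertk and Axl and the ligands Gas6 and Pros1 in macrophages with 5 or more, 1 to 4 and 0 UMIs of Lyve1, Folr2, Cd163 and Timd4, WT in blue and mgR in red, with 95% Poisson intervals. Lines join the ranges of 1 library. From the highest to the lowest range the first 4 genes go down in both libraries, and Axl goes up.

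Between the libraries, the ratios inside the 3 ranges set on all UMIs lay on both sides of 1 for Gas6, Pros1 and Mertk. They lay below 1 in each range for Axl and Csf1r. In the high range the mgR to WT ratio was 1.33 (1.17 to 1.53) for Gas6, 1.03 (0.793 to 1.36) for Pros1, 0.940 (0.685 to 1.32) for Mertk, 0.822 (0.547 to 1.29) for Axl and 0.892 (0.819 to 0.972) for Csf1r. In cells with 1 to 4 of the resident UMIs (30 in WT and 214 in mgR) it was 0.591 (0.445 to 0.797) for Gas6, past the fold downward, 1.19 (0.582 to 2.84) for Pros1, 0.814 (0.421 to 1.76) for Mertk, 0.780 (0.469 to 1.38) for Axl and 0.905 (0.755 to 1.09) for Csf1r. With the range set on thinned cells, where it held cells with exactly 1 resident UMI, the Gas6 ratio was 1.12 (0.814 to 1.57). In cells with none of the resident UMIs the ratio was 1.04 (0.719 to 1.53) for Gas6 and 0.658 (0.431 to 1.03) for Pros1. It was 1.64 (0.914 to 3.19) for Mertk, 0.794 (0.644 to 0.986) for Axl and 0.876 (0.789 to 0.975) for Csf1r. With all 3 ranges set on thinned cells, Gas6 lay above 1 in each, at 1.27 (1.11 to 1.46) in the high range. At 0 the thinned ratio of Gas6 was 1.41 (1.07 to 1.90), with an interval that excludes 1. Reweighting the mgR ranges to the mix of UMIs found in WT gave ratios of 1.17 for Gas6, 0.929 for Pros1, 1.06 for Mertk and 0.797 for Axl, against 1.85, 1.32, 1.36 and 0.605 as measured. With ranges set on thinned cells these were 1.27, 0.966, 1.12 and 0.755. Csf1r went from 1.06 as measured to 0.887 after reweighting, and to 0.922 with ranges set on thinned cells. None of these genes passed the fold after reweighting. Whether the libraries sampled the same mixture of macrophages as the valves held was not tested.

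Macrophages with a UMI of Ccr2, the chemokine receptor of recruited monocytes, were 12.9% of WT and 10.5% of mgR macrophages. Axl was higher in them, at 171 CPM (122 to 234) against 96.2 CPM (79.5 to 115) in WT and 108 CPM (92.6 to 125) against 59.3 CPM (54.98 to 63.9) in mgR. Csf1r was lower, at 0.472 (0.378 to 0.584) of the level of other macrophages in WT and 0.549 (0.511 to 0.590) in mgR. Gas6 had 2 UMIs in 29 WT cells, 0.0331 (0.00400 to 0.121) of the level elsewhere, and stood at 0.251 (0.216 to 0.290) in mgR. Mertk had 0 UMIs in those 29 WT cells, which allows up to 13.2 CPM at 3 counts against 52.6 CPM in the rest, and stood at 0.411 (0.297 to 0.555) of the level elsewhere in mgR.

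Cycling macrophages, with at least 3 UMIs of Mki67, Top2a, Cdk1 and Birc5, numbered 5 in WT (2.23%) and 97 in mgR (6.30%). In mgR they held less Csf1r than other macrophages, 663 CPM (618 to 710) against 859 CPM (842 to 875), and less Gas6, 203 CPM against 436 CPM, less Pros1, 58.3 CPM against 91.3 CPM, and less Mertk, 23.0 CPM against 64.2 CPM. Axl was level, at 68.2 CPM (54.3 to 84.5) and 65.1 CPM (60.6 to 69.8). The 5 WT cells held 33 Csf1r UMIs and too few of the others to compare. The cycling sum was taken on all UMIs, and macrophages had a median of 6013 UMIs in WT and 8325 in mgR. The part of depth in the 2.23% and 6.30% shares was not tested.

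The members were also seen together in single cells. A Gas6 UMI and a Mertk UMI were present in 29.6% (27.3 to 31.9) of mgR macrophages, where the product of the separate shares is 24.7%, and in 15.6% (11.1 to 21.0) of WT macrophages, product 9.42%. Gas6 and Axl shared cells less than the product, 21.1% (19.0 to 23.2) against 25.3% in mgR and 15.2% (10.8 to 20.6) against 20.9% in WT. Deep cells raise every such share. At 2000 UMIs a cell the Gas6 and Mertk share in mgR was 6.67% (5.46 to 8.04) beside a product of 5.69%, and that of Gas6 and Axl 4.29% (3.33 to 5.44) beside 5.54%. The first of these intervals includes its product and the second does not. In WT the thinned shares were 2.75% (1.02 to 5.89) beside 1.96% for Gas6 and Mertk and 3.67% (1.60 to 7.103) beside 5.61% for Gas6 and Axl, and both intervals include the product. Axl and Mertk were found together in 11.2% (9.71 to 12.9) of mgR macrophages, product 12.2%, and in 6.70% (3.796 to 10.8) of WT macrophages, product 8.97%.

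Gas6 and Csf1 differed between sets of fibroblasts in both libraries. Cells with at least 5 UMIs of Fmod, Prg4, Scx and Chad (108 in WT and 347 in mgR) were compared with cells below that sum and with at least 5 UMIs of Ptx3, Igfbp3 and Smoc2 (78 and 209). The Ptx3 set held the highest Gas6 level of the fibroblast sets, 1359 CPM (1252 to 1474) in WT and 1603 CPM (1541 to 1667) in mgR. The Fmod set held 236 CPM (200.5 to 277) and 293 CPM (273 to 314), which is 0.174 (0.145 to 0.208) and 0.183 (0.168 to 0.198) of it. Between the Fmod and Ptx3 sets Csf1 followed the same order more weakly, at 0.520 (0.372 to 0.724) in WT and 0.564 (0.471 to 0.676) in mgR. Pros1 did so in WT, at 0.600 (0.403 to 0.893), and was level in mgR, at 0.980 (0.764 to 1.26). The highest WT level of Csf1 lay in fibroblasts of neither set, 219.9 CPM (184 to 261) beside 197 CPM (157 to 243) in the Ptx3 set, with overlapping intervals.

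Axl was level in WT, with 134 CPM (108 to 165) in the Fmod set and 136 CPM (104 to 176) in the Ptx3 set, and in mgR the Fmod set stood at 0.795 (0.642 to 0.988) of the Ptx3 set. Mertk was higher in the Fmod set of mgR, 2.18-fold (1.07 to 4.91) on 38 and 10 UMIs, and had 8 and 4 UMIs in WT. Between libraries, the lower Axl of mgR fibroblasts lay in the Fmod set, with a ratio of 0.567 (0.440 to 0.736), and in the Ptx3 set, with 0.701 (0.515 to 0.964), while fibroblasts of neither set had 90.0 CPM in WT and 112 CPM in mgR, 1.24 (0.917 to 1.71). The lower Csf1 lay mostly in fibroblasts of neither set, at 219.9 CPM (184 to 261) in WT and 114 CPM (99.2 to 130.1) in mgR, a ratio of 0.518 (0.415 to 0.648). Pros1 was lower in the Ptx3 set, 129.5 CPM (97.8 to 168) in WT and 65.6 CPM (53.6 to 79.6) in mgR, a ratio of 0.507 (0.363 to 0.715), and close to level in fibroblasts of neither set, 0.987 (0.715 to 1.38). Gas6 was higher in mgR in each of the 3 sets, by 1.18-fold to 1.44-fold.

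**Figure D4:**
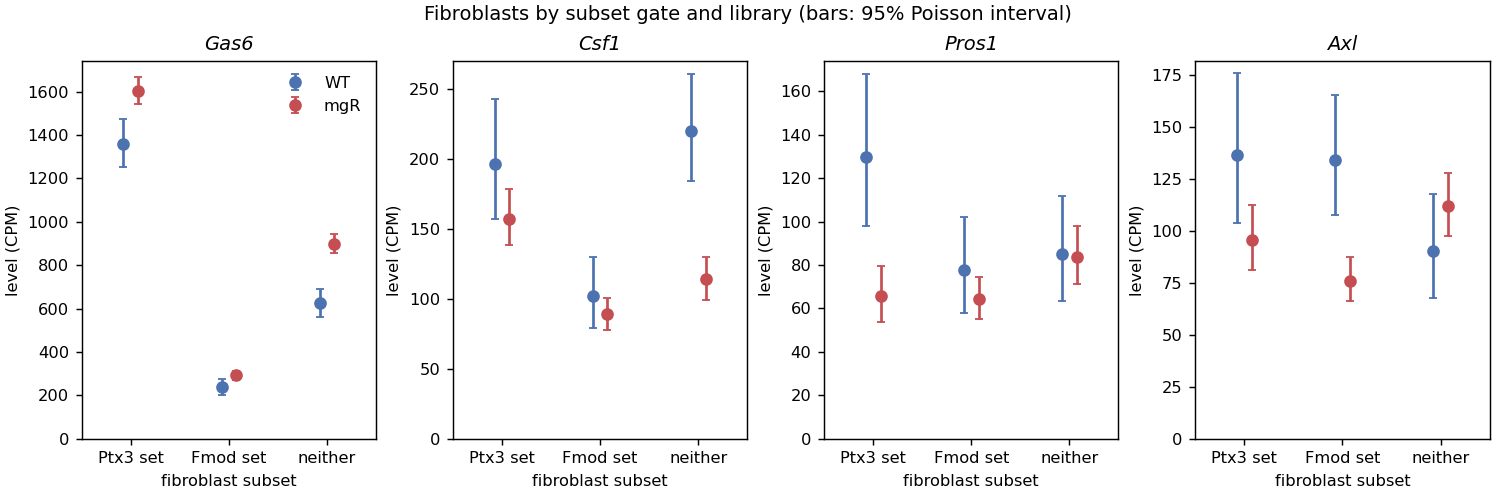
Level in CPM of Gas6, Csf1, Pros1 and Axl in fibroblasts of the Ptx3 set, the Fmod set and neither, WT in blue and mgR in red, with 95% Poisson intervals. Gas6 separates the sets in each library, from 236 CPM in the WT Fmod set to 1603 CPM in the mgR Ptx3 set, while Axl is level between the Fmod and Ptx3 sets in WT and lower in the Fmod set in mgR.

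Genes that act around these signals were read from 3 lists. Of 23 genes of CSF1R signaling and survival, 20 met the minimum in macrophages, 2 were past the fold upward and 4 downward, and the list's median log2 ratio was 0.15 beside 0.11 for all genes. The higher ones were Maf, a transcription factor of resident macrophages (287 and 458 CPM in WT and mgR, 1.59-fold, 1.44 to 1.77), and Bcl2, a survival protein (11.1 and 18.1 CPM, 1.64-fold, 0.988 to 2.91). The Bcl2 ratio was 0.929 (0.494 to 1.97) in macrophages with Xist UMIs alone and 3.12 (0.989 to 15.8) on 3 WT UMIs in those with Y-linked UMIs alone. Among the lower ones were Myc (22.2 and 8.62 CPM, ratio 0.389, 0.261 to 0.595), the fractalkine receptor gene Cx3cr1 (204 and 124 CPM, 0.608, 0.537 to 0.691) and Bcl2a1b (1353 and 844 CPM, 0.623, 0.594 to 0.654), which belongs to a family of near-identical copies whose reads may be split. The fourth was Bcl2l1, the gene of the survival protein BCL-XL, at 0.633. Within the sets, Cx3cr1 stood at 0.822 for Xist alone and Bcl2l1 at 0.724 for Y-linked UMIs alone, inside the limits. Tyrobp, an adaptor of myeloid receptors, and Spi1, the gene of PU.1, stood inside the limits at 1.24 and 1.03. Bcl2l1, Tyrobp and Spi1 were named after their values were seen.

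For recognition of dying cells, 17 of 24 genes met the minimum in macrophages, with 1 past the fold each way and a median log2 ratio of 0.04. Timd4, a phosphatidylserine receptor of resident macrophages, was higher (33.9 and 58.1 CPM, 1.71-fold, 1.28 to 2.33) and is also among the genes that define the resident sum. Its ratio was 1.30 (0.822 to 2.17) for Xist alone. Lgals3, which encodes galectin-3, was lower (1742 and 1136 CPM, ratio 0.652, 0.625 to 0.681), with 0.680 for Xist alone, just inside the limit. For engulfment and digestion, 22 of 24 genes met the minimum, 2 were higher, 1 was lower and the median was 0.14. Rubcn, needed for LC3-associated phagocytosis, stood at 1.99 on 7 WT UMIs (0.941 to 5.06) and at 3.08 on 2 WT UMIs for Y-linked UMIs alone, Arhgap12 at 1.62 (1.14 to 2.40) and Odc1, the enzyme that starts polyamine synthesis, at 0.531 (0.443 to 0.640). Shares past the fold were 30.0%, 11.8% and 13.6% for the 3 lists in macrophages, around the 17.6% of all genes.

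In fibroblasts, 16, 15 and 19 genes of the lists met the minimum, and 4, 2 and 2 were past the fold, or 25%, 13.3% and 10.5% beside the 10.5% of all fibroblast genes. Tyrobp rested on 5 UMIs in WT and 214 in mgR (11.7-fold, 4.92 to 36.3), Lgals3 on 5 and 273 (14.9-fold, 6.29 to 46.1) and Ucp2 on 11 and 126 (3.12-fold, 1.68 to 6.41). With Y-linked UMIs alone these ratios were 3.17, 5.51 and 7.99, and Ucp2 was at 1.85 with Xist UMIs alone, each on at most 4 WT UMIs. All 3 genes were high in the macrophages of these libraries (Tyrobp 1553 and 1928 CPM, Lgals3 1742 and 1136 CPM, Ucp2 660.4 and 690.1 CPM in WT and mgR), and the C1q UMIs in fibroblasts were higher in mgR as well (4.74 to 7.11 CPM per gene against 9.51 to 24.5 CPM). Their part in these differences was not tested. Ccnd1 (cyclin D1) was higher at 79.9 and 139.8 CPM (1.75-fold, 1.46 to 2.11), but inside the limit within the sets, at 1.48 and 1.40. Thbs1, encoding the matricellular bridge thrombospondin-1, was lower at 839.7 and 547 CPM (ratio 0.651, 0.612 to 0.693) over all fibroblasts. Its direction turned between the sets, with 1.62 (1.40 to 1.90) for Xist alone and 0.478 (0.427 to 0.535) for Y-linked UMIs alone. Dusp6 (0.552, 0.371 to 0.831), Csf2rb (0.587, 0.433 to 0.803) and the cholesterol exporter gene Abca1 (0.604, 0.436 to 0.846) were lower. For Xist alone, Csf2rb stood at 1.09 (0.501 to 2.82), Abca1 at 0.993 (0.496 to 2.25) and Dusp6 at 0.360 (0.205 to 0.663), and for Y-linked UMIs alone at 0.341 (0.211 to 0.545), 0.571 (0.324 to 1.01) and 0.514 (0.230 to 1.14) in the same order. The list medians were −0.19, −0.04 and −0.08 beside −0.04 for all genes.

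Across 13 profiles, a class in a library with at least 20 cells each, other genes shared the distribution of each member. The profiles share libraries and depths, and the correlations of log2(CPM + 10) are descriptions over 11133 genes compared. Csf1r lay closest to Ifi207, Clec4a3 and Mapkapk2 (Pearson r 0.979, 0.963 and 0.962), and the genes close to Mertk included Tpp1 and Plekhg5 (0.952 and 0.95). Gas6 lay closest to Wtip, Fblim1 and Col14a1 (0.977, 0.963 and 0.949), and Csf1 to Bmx, 2700046A07Rik and Fmo5 (0.966, 0.957 and 0.948). Pros1 went with Klc1, Mex3d and Jmjd6 (0.962, 0.953 and 0.95). Axl had the loosest neighbors, Epb41l2, Fam102b and Sumf1 (0.918, 0.907 and 0.902), and Il34 had too few UMIs for this comparison.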

How the data were processed

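Single-cell 3′ libraries of mitral valve leaflets, 1 per genotype, were deposited as counts: UMIs per gene and cell barcode, which the authors made with Cell Ranger 7.1.0 on mm10 per the submitters' processing notes. The annotation and the handling of intronic reads were not given in the sources used here. Library totals were 5381844 and 28215539 UMIs. Cells with 200 to 5000 genes and at most 10% mt- UMIs were kept, as in the study. Doublets were not removed in the main values. Scrublet (scanpy 1.11.5) marked 7 WT and 51 mgR cells. UMIs were summed per gate, cells meeting more than 1 gate being left out, and divided by the class total. A gene needed 100 UMIs over both libraries for the 1.5-fold count. A count of 0 was taken to allow 3 counts. No test fits 1 library per genotype. Functions were tested on simulated data. The members, gates, lists and motifs were chosen with earlier results of these data known. Named genes were the members, up to 3 list genes past the fold in each direction, and the 3 most alike genes per member. Positions are of GENCODE on GRCm38, matched by gene identifier, and promoters of RefSeq, with 1 row for each of 5 members. Il34 and Csf1r have no promoter shown. Python 3.11.15, numpy 2.4.6, scipy 1.17.1, pandas 2.3.3 and matplotlib 3.10.9 were used. A gene that the rule for genes most like a member also named is not reported here.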

Additional observations from a re-analysis of the deposited data

Results flagged for a closer look

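Pros1 had mgR to WT ratios on opposite sides of 1 in the main gates, 1.32 in macrophages and 0.755 in fibroblasts. Their counting intervals exclude 1. In fibroblasts with Xist UMIs alone, and in those with Y-linked UMIs alone, the interval includes 1. The difference was not tested, as there is 1 library per genotype.

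The 229 WT and 364 mgR barcodes outside the cell filters entered no comparison. In them, Csf1r was read at 63.1 CPM in mgR and 9.95 CPM in WT (97 and 8 UMIs), Gas6 at 80.0 CPM and 11.2 CPM (123 and 9 UMIs), and Pros1 at 18.9 CPM and 3.73 CPM (29 and 3 UMIs), above the WT level beyond counting error. Csf1 in the same barcodes was 12.4 CPM and 11.2 CPM.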

How the results depend on the processing

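No paired analysis was possible because each genotype has 1 library, and for the same reason no replicate could be left out. Values below were compared with the 95% counting interval of the main value, and counts with 1.5 times the main count. Of 140 alternative mgR to WT ratios, 113 stayed within the interval, and of 136 alternative ratios between gates, also 113. The cause of the others was not tested. The alternatives using resident ranges, double-gate cells and thinned ranges were added after the data were seen.

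Between libraries, leaving out the 10 cells with most UMIs gave Csf1 0.846 and Gas6 1.39 in fibroblasts, Gas6 2.35, Pros1 1.66 and Mertk 2.04 in macrophages and Pros1 2.27 in endothelium. Cells with Xist UMIs alone gave Csf1 0.798 and Gas6 1.03 in fibroblasts, Mertk 1.82 in macrophages and, reversed and on 1 WT UMI, Csf1 2.72 in endothelium. Cells with Y-linked UMIs alone gave Mertk 0.971 in macrophages and Csf1 0.149 in endothelium. Endothelial Csf1 was 0.615 over every cell that met the gate, 0.605 with gates on thinned cells and reversed to 1.38 in double-gate cells. Thinning to 2000 UMIs gave Csf1r 0.983 in macrophages and Gas6 1.39 in fibroblasts, and scaling by the median gene ratio gave Csf1r 0.983. In the high resident range, macrophage ratios were 0.892 for Csf1r, 1.33 for Gas6, 1.03 for Pros1, 0.822 for Axl and 0.940 for Mertk, and at 0 they were 0.876 for Csf1r, 1.04 for Gas6, 0.658 for Pros1 and 0.794 for Axl.

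Between gates, using every cell that met the gate gave a Csf1 fibroblast to macrophage ratio of 12.02 in mgR, a Csf1r macrophage to fibroblast ratio of 60.0 in WT and 31.5 in mgR, and fibroblast to macrophage ratios in mgR of 1.76 for Gas6, 0.999 for Pros1 and 1.18 for Axl. Gates on thinned cells gave 1.84 for Gas6 in mgR. Without the 10 top cells the mgR ratios were 24.0 for Csf1, 202 for Csf1r, 1.75 for Gas6, 8.32 for Mertk and 1.21 for Pros1 in endothelium over macrophages, which reversed to 0.892 in WT. Thinned mgR cells gave 73.3 for Csf1r, 1.58 for Axl and 1.27 for endothelial Pros1. With Xist UMIs alone, WT gave 11.1 for Csf1 and 1.98 for Mertk. With Y-linked UMIs alone, Mertk was 7.99 in WT, and in mgR Gas6 was 2.08, Pros1 0.656, endothelial Pros1 1.14 and Axl 1.60. Resident ranges on thinned cells, whose high range began at a lower sum, gave mgR ratios of 1.80 for Csf1r, 6.70 for Gas6 and 3.81 for Pros1.

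The 8 pathway genes past the fold in fibroblasts became 13 at a minimum of 20 UMIs, 15 with no minimum beyond 1 UMI in each library, 3 at a fold of 2 and 1 in cells thinned to 2000 UMIs. The 11 in macrophages became 17 with no minimum and 1 at a fold of 2. Shares of cells with a UMI all lay outside the main interval without thinning or at 1000 UMIs, as depth sets them. No value was possible where a count was 0, in 8 cases, of which 3 concern Il34. WT endothelium, with 29 cells, limits every statement on it.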
